A study of Saccharomyces cerevisiae with 96 samples.

Results

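The genes described here make or take up inositol and build the membrane phospholipids of budding yeast, or regulate that synthesis. The 10 genes INO1, INO2, INO4, OPI1, CHO1, CHO2, OPI3, ITR1, ITR2 and EKI1 were chosen by name, and a probe set was used where the array annotation gave it a single gene name. Each of the 10 had exactly 1 such probe set, and all 10 were among the 9275 probe sets tested. RNA was measured on 96 Affymetrix YG-S98 arrays in Saccharomyces cerevisiae S288C, which has the nonsense-mediated mRNA decay pathway (Nmd+), and in the congenic strain YRZ1, in which UPF1 is replaced by upf1Δ::KanMX4 (Nmd-). Both are laboratory strains that carry SUC2 and CUP1 beside the alleles mal, mel, gal2, flo1 and flo8-1, and each genotype was represented by a single strain. Mid-log cultures of both received thiolutin, which stops transcription, at 10 μg/ml (14 μg/ml in the notes of the 6 arrays at 4 min). They were sampled at 0 min and at 15 later times up to 60 min in 3 independent time courses per strain, numbered 1 to 3.

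Yeast cells make inositol from glucose 6-phosphate, with inositol 3-phosphate synthase, the product of INO1, at the first step, and import it from the medium through the transporters Itr1 and Itr2. Ino2 and Ino4 are helix-loop-helix proteins that bind together to the inositol-sensitive element in the promoters of phospholipid genes and activate them, and Opi1 is the repressor that holds them down when inositol is plentiful. Cho1 makes phosphatidylserine, Cho2 and Opi3 methylate phosphatidylethanolamine to phosphatidylcholine, and Eki1 phosphorylates ethanolamine at the start of the Kennedy pathway. Nonsense-mediated mRNA decay removes transcripts on which translation ends early, and Upf1 is a helicase that it cannot do without.

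The strain labels were checked first with UPF1 and with the KanMX4 cassette. Of the 96 arrays, 90 had the marker values of their labelled strain and 6 did not. The library labelled Nmd- course 1 had the UPF1 and KanMX4 values of an Nmd+ strain at 10, 40, 45 and 50 min. The KanMX4 value was high in the arrays labelled Nmd+ course 1 at 20 min and Nmd+ course 3 at 60 min, whose UPF1 values were those of their label. No array at 0 min was affected, and differences over the course are given with these arrays and without the times that hold them. Course 1 of both strains was scanned mostly in another period than courses 2 and 3. Values are log2 signals as deposited, scaled so that all arrays are alike in overall level, so each is a level relative to the average RNA of its array. Less of a transcript per cell and a smaller share of all RNA cannot be told apart.

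The sequences that the study lists around the first AUG of the mRNA and around the next, out-of-frame AUG are shown for INO4 and EKI1. These are the members that the study's list of such sequences holds. They were also the 2 genes of the 10 whose RNA level differed between the strains before thiolutin. The study drew its list from RNAs that it had first selected as higher in Nmd- on these same arrays. The overlap is therefore no separate evidence. The capitals mark the ATG in the DNA sense strand, and each stretch runs 5′ to 3′ with 6 bases on the left and 3 on the right.
INO4 first ATG: gcaataATGacg
INO4 second ATG: tggctaATGtga
EKI1 first ATG: ggcataATGtac
EKI1 second ATG: atactaATGagc
At position -3, counted from the A of the ATG, both first ATGs had an a and both second ATGs had a c. In yeast an A at this position is the base most often found before start codons. In INO4 the triplet that follows the second ATG was tga, a stop codon.

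At 0 min, before transcription was blocked, INO4 and EKI1 RNA was higher in Nmd- and no other member passed the test. The log2 values of INO4, which codes for one subunit of the activator, were 5.76, 5.53 and 5.32 in Nmd+ courses 1 to 3 and 7.57, 6.52 and 6.93 in Nmd- courses 1 to 3. All 3 Nmd- arrays were above all 3 Nmd+ arrays, with the widest spread in Nmd-. The difference was 1.47 on the log2 scale (SE 0.29, n = 3 per strain, 2.77-fold), with an adjusted p of 0.0275 in limma. EKI1, the ethanolamine kinase gene, had log2 values of 5.82, 6.18 and 5.85 in Nmd+ and 6.88, 7.04 and 7.53 in Nmd-. Here too the strains did not overlap, and the difference was 1.20 on the log2 scale (SE 0.23, n = 3 per strain, 2.29-fold), with an adjusted p of 0.0261 in limma. Over all probe sets tested, 4.28% were called higher and 0.701% lower in Nmd- in the same comparison. A call needed both an adjusted p below 0.05 and a fold of 1.5 or more. The median difference was 0.22 over the 10 genes and -0.05 over all probe sets.

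With 1 of the 6 arrays left out, the INO4 difference at 0 min lay between 1.19 and 1.72 and the call was lost in 5 of the 6 fits, all but the one without Nmd- course 2. The EKI1 difference lay between 1.01 and 1.33, and its call was lost in all but the fit without Nmd- course 1 and also with scan period as a factor (limma adjusted p = 0.116) and with the replicate block (limma adjusted p = 0.0689), although at 0 min the numbers did not pair the arrays. Both genes differed the same way within each scan period that held arrays of both strains at 0 min. INO4 was higher in Nmd- by 1.40 in the second period (2 arrays against 1) and by 2.04 in the third (1 against 1), and EKI1 by 1.43 and 0.70.

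**Figure D1:**
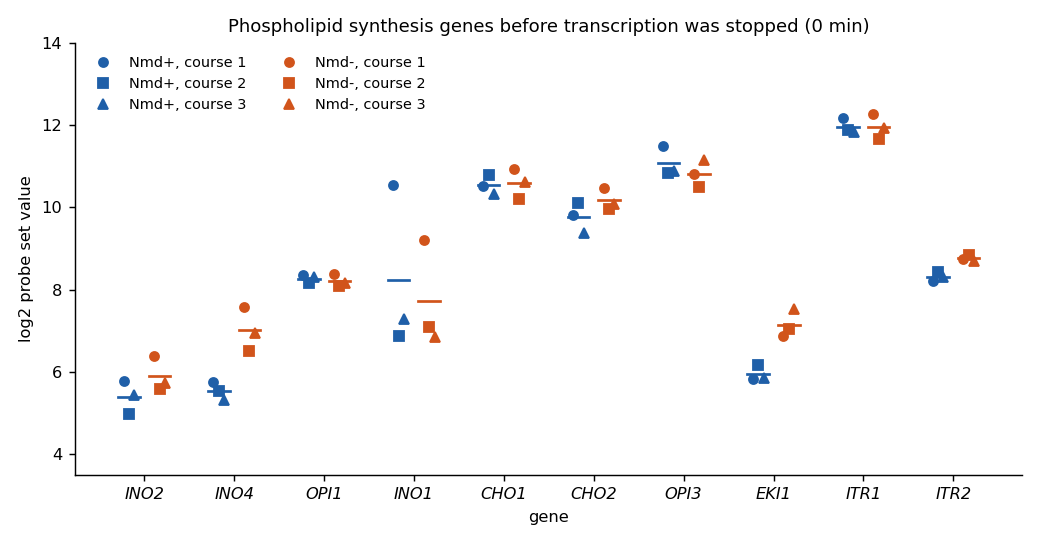
Log2 probe set value (y axis) of the 10 genes (x axis) in the 6 arrays at 0 min, with the 3 Nmd+ courses in blue, the 3 Nmd- courses in orange and the mean of each strain as a bar. The Nmd- points lie wholly above the Nmd+ points for INO4 (6.52 to 7.57 against 5.32 to 5.76), EKI1 and ITR2, and INO1 has 1 high point in each strain, both of course 1.

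The partners of INO4 in regulation were less separated at 0 min. INO2, the gene of the other subunit, had log2 values of 5.77, 4.98 and 5.44 in Nmd+ and 6.39, 5.59 and 5.74 in Nmd-. The strains overlapped, and the difference of 0.51 (SE 0.29) had an adjusted p of 0.398 in limma. The repressor gene OPI1 had nearly the same values in both strains, 8.16 to 8.35 in Nmd+ and 8.09 to 8.39 in Nmd-, a difference of -0.06 (SE 0.18, limma adjusted p = 0.903). Of the transporter genes, ITR2 was at 8.22, 8.42 and 8.31 in Nmd+ and at 8.75, 8.84 and 8.69 in Nmd-. These did not overlap either, but the difference of 0.44 (SE 0.17) had an adjusted p of 0.219 in limma. Of all probe sets, 13.8% had all 3 Nmd- arrays above all 3 Nmd+ arrays at 0 min, and 10.8% had them all below. ITR1, which codes for the other inositol transporter, differed by -0.01 (SE 0.22, limma adjusted p = 0.99).

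The promoters of INO1, CHO1, CHO2 and OPI3 are the textbook targets of Ino2 and Ino4, and none of these genes passed the test at 0 min. INO1 was at 10.55, 6.87 and 7.28 in Nmd+ and at 9.21, 7.09 and 6.85 in Nmd-. In both strains course 1 was far above the others, and the difference between the strains, -0.52, was smaller than its SE of 0.998 (limma adjusted p = 0.833). With scan period as a factor the INO1 difference turned to 0.82. The phosphatidylserine synthase gene CHO1 differed by 0.04 (SE 0.24), with 10.33 to 10.79 in Nmd+ and 10.21 to 10.94 in Nmd-. The methyltransferase genes CHO2 and OPI3 differed by 0.40 (SE 0.25) and -0.25 (SE 0.26), in opposite directions, and the strains overlapped for both. The limma adjusted p was 0.958 for CHO1, 0.436 for CHO2 and 0.66 for OPI3.

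**Figure D2:**
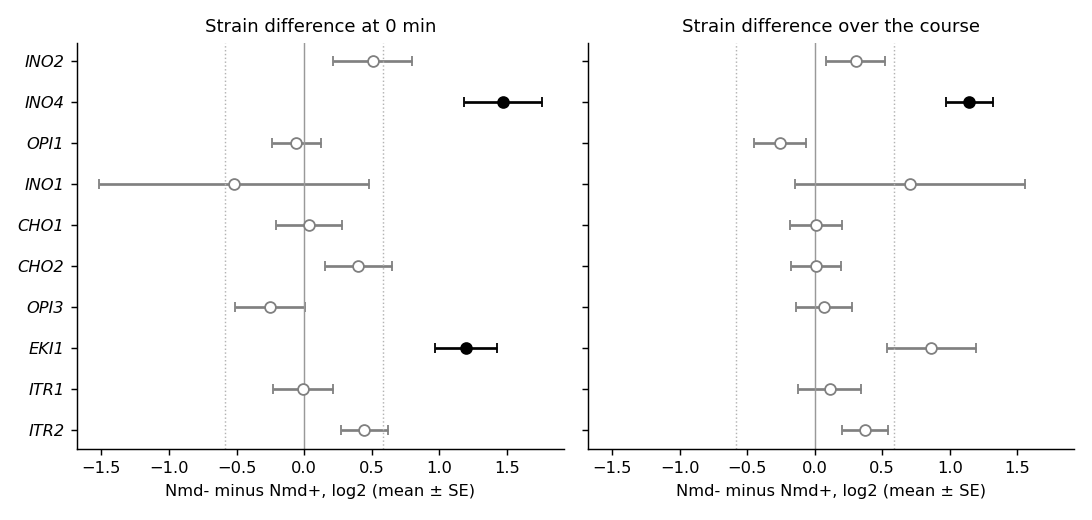
Nmd- minus Nmd+ on the log2 scale (x axis, mean ± SE, n = 3 per strain) for each of the 10 genes (y axis), at 0 min on the left and as means of whole courses on the right. Filled points passed the test, which did not pair the courses, and dotted lines mark 1.5-fold. INO4 (1.47 and 1.14) stands to the right of the dotted lines in both panels and EKI1 (1.20) is filled only on the left.

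The question of whether the strains differed throughout was asked of the course means, 16 arrays each, which share the 0 min arrays with the comparison above. INO4 was the member called, in a fit that did not pair the courses by number. Its course means were 5.68, 5.15 and 5.47 in Nmd+ and 6.58, 6.51 and 6.64 in Nmd-, so all Nmd- courses lay above every Nmd+ course. The share of all probe sets with course means separated in this way was not counted. The INO4 difference was 1.14 (SE 0.17, n = 3 courses per strain, 2.21-fold, limma adjusted p = 0.0199), where 2.64% of all probe sets were called higher and 0.0755% lower in Nmd-. Without the times that hold an array against its label it was 1.18 (limma adjusted p = 0.0187). With 1 course left out it lay between 0.999 and 1.27, and the call was lost in 5 of 6 fits, all but the one without Nmd+ course 1. These fits did not pair the courses either.

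Array by array, the 2 strains were nearly separate for INO4. In the arrays with their label it ranged in Nmd+ from 3.77 to 6.04 with a median of 5.46 (46 arrays) and in Nmd- from 3.87 to 7.74 with a median of 6.74 (44 arrays). Of the 44 Nmd- arrays, 42 were above the highest Nmd+ value. The exceptions were Nmd- course 2 at 4 min, at 6.00, and Nmd- course 3 at 6 min, at 3.87. Equally low single values occurred in Nmd+, at 3.79 in course 3 at 2 min and at 3.77 in course 2 at 40 min, each between higher neighbours in time. The 4 arrays labelled Nmd- whose markers were those of Nmd+ held INO4 at 5.32 to 5.85, within the range of Nmd+. The 2 arrays labelled Nmd+ with a high KanMX4 value had the 2 highest INO4 values of their label, 6.09 and 6.29.

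All 3 Nmd- arrays were above all 3 Nmd+ arrays at 12 of the 16 times for INO4, as they were at 12 or more times for 2.7% of all probe sets. The difference of the means ran from 0.42 at 6 min, the time of the lowest Nmd- array, to 1.85 at 2 min, the time of a low Nmd+ array, and was 1.29 at 60 min. The mean of INO4 was higher in Nmd- at 16 of 16 times, which was also so for EKI1 and ITR2 and for 7.15% of all probe sets. Within the scan periods, INO4 was higher in Nmd- by 0.64 in the first (11 times, with the 4 arrays against their label among them), 1.18 in the second (16 times) and 1.18 in the third (2 times). The last is the mean of 2.04 at 0 min and 0.32 at 20 min, where the Nmd+ array was one with a high KanMX4 value.

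EKI1 was at 5.24, 5.85 and 5.86 as course means in Nmd+ and at 5.90, 6.51 and 7.13 in Nmd-. The strains did not overlap, which was not counted over all probe sets. The lowest Nmd- course was only just above the highest Nmd+ courses. The difference was 0.86 (SE 0.33, 1.82-fold) and had an adjusted p of 0.384 in limma without pairing. Equally numbered courses of the strains deviated together over all probe sets, so the numbers were taken to pair the courses. With that pairing as a replicate block, the same difference had an SE of 0.14 and an adjusted p of 0.0196 in limma, and 6.45% of all probe sets were called higher in Nmd- under it. EKI1 was higher in Nmd- by 0.66, 0.66 and 1.27 in pairs 1 to 3.

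The 4 arrays labelled Nmd- with Nmd+ markers had 4.87 to 5.56, against 5.52 to 7.66 in the other 44 Nmd- arrays. The 2 arrays labelled Nmd+ with a high KanMX4 value had EKI1 at 5.66 and 6.17, inside the range of the other Nmd+ arrays (4.78 to 6.49). The difference of the EKI1 means ran from 0.27 at 10 min to 1.504 at 30 min. Nmd- arrays were all above Nmd+ at 4 of 16 times, and at 4 or more times for 12.4% of all probe sets. Without the times of these arrays the EKI1 difference was 1.03 (SE 0.30, limma adjusted p = 0.164).

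The inositol transporter gene ITR2 also had a higher mean in Nmd- at every time, at a smaller size. Its course means were 7.90, 8.01 and 8.16 in Nmd+ and 8.14, 8.49 and 8.55 in Nmd-, which overlap by a small margin. The difference was 0.37 (SE 0.17, limma adjusted p = 0.529, and 0.0517 with the replicate block), and 0.46 without the times that hold an array against its label. The 4 arrays labelled Nmd- with Nmd+ markers had ITR2 values of 7.71 to 8.08, below the median of 8.48 in the other Nmd- arrays. All Nmd- arrays were above Nmd+ at 6 of 16 times, and at 6 or more times for 8.77% of all probe sets.

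**Figure D3:**
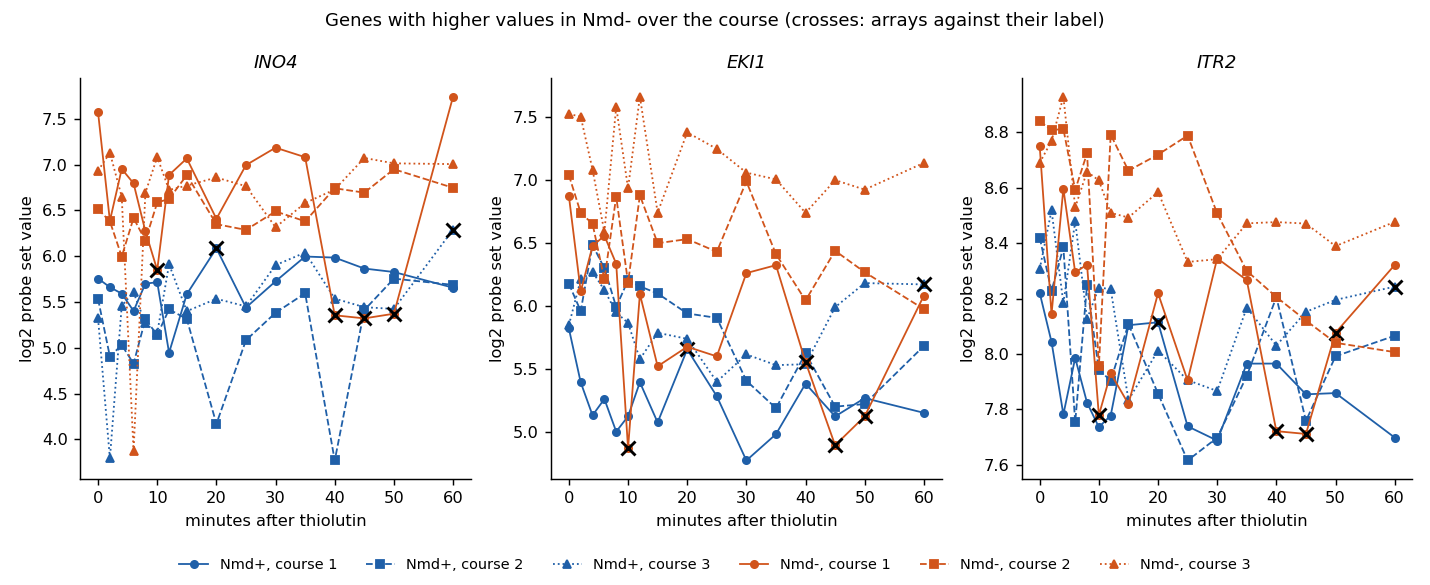
Log2 probe set value (y axis) against minutes after thiolutin (x axis) for INO4, EKI1 and ITR2, with 1 line per course, Nmd+ in blue, Nmd- in orange, and black crosses on the 6 arrays with a marker against their label. The Nmd- lines of INO4 lie mostly above the Nmd+ lines and drop to 5.32 to 5.85 at the 4 crossed arrays of course 1.

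Without pairing, EKI1 and ITR2 did not pass the test over the course, and neither did any of the other 7 genes. INO2 differed by 0.30 (SE 0.22), with 5.47, 4.81 and 4.93 in Nmd+ and 5.59, 5.35 and 5.17 in Nmd-. OPI1 was the only member with a lower mean in Nmd-, by -0.26 (SE 0.19), and its mean was lower in Nmd- at 12 of 16 times and higher at 4. Over all probe sets the median was 6 of 16 times with a higher mean in Nmd-, and 73.8% had 4 or more. CHO1, CHO2, OPI3 and ITR1 lay between 0.01 and 0.11 with SEs of 0.19 to 0.23, and their means were higher in Nmd- at 8 to 10 of 16 times. The limma adjusted p was 0.74 or more for all 7. With the replicate block none of them passed either, with the lowest limma adjusted p at 0.0958 for OPI1, 0.113 for INO1 and 0.114 for INO2. OPI1 was lower in Nmd- in 3 of 3 pairs, by -0.19, -0.34 and -0.23, and INO2 higher in 3 of 3, by 0.13, 0.54 and 0.24. The share of all probe sets with 3 of 3 pairs in 1 direction was not counted. Without the times that hold an array against its label, INO2 was at 0.36, OPI1 at -0.20 and CHO1, CHO2, OPI3 and ITR1 between -0.0023 and 0.15.

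INO1 differed more between the courses of a strain than between the strains. Its course means were 10.29, 7.03 and 7.78 in Nmd+ and 10.18, 8.19 and 8.84 in Nmd-. Course 1 was the highest in both strains, above the mean of courses 2 and 3 by 2.89 in Nmd+ and by 1.67 in Nmd-. Averaged over the strains this gap was 2.28 on the log2 scale (4.85-fold), and of all 9275 probe sets only that of the phosphate transporter gene PHO84 had a larger one, 2.42. The gap of every other member lay between -0.77 (EKI1) and 0.46 (INO2), and those of the Ino2 and Ino4 targets CHO1, CHO2 and OPI3 were 0.08, -0.16 and 0.29. These gaps are given as a description with no test.

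In course 1, INO1 stayed between 9.12 and 10.87 in the 16 Nmd+ arrays and between 9.09 and 10.77 in the 16 Nmd- arrays. Course 2 ran from 5.80 to 9.08 in Nmd+ and from 7.09 to 8.84 in Nmd-. Course 3 ran from 5.97 to 10.15 in Nmd+ and from 6.66 to 10.59 in Nmd-. The 10.15 was in the array at 60 min with a high KanMX4 value, and the next highest of that course was 8.67. In Nmd- the range of course 1 was reached in course 3 at 6 and 10 min. It was also reached there at every time from 35 to 60 min, with values of 9.12 to 10.59. In Nmd+ only the course 3 array at 60 min reached it. No array of course 2 did so in either strain. In Nmd- course 3 the mean of INO1 was 7.50 at 0 and 2 min and 10.22 at 45 to 60 min, whereas in Nmd- course 2 it was 7.78 and 8.00.

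Since course 1 was scanned mostly in another period, the INO1 values were set out by period as well. In Nmd- course 1 the 5 arrays scanned in the third period ran from 9.21 to 10.77 with a median of 10.30, and the 11 scanned in the first from 9.09 to 10.66 with a median of 10.28. Of these 11, 4 had the markers of Nmd+, and the other 7 ran over the same range with a median of 10.31. Arrays of course 2 scanned in the third period were low, at 6.87 and 7.36 in Nmd+ (2 arrays) and 8.84 in Nmd- (1 array). The 1 array of Nmd+ course 1 scanned in the third period, at 9.12, was one of those against their label. Over the whole course INO1 differed between the strains by 0.71 (SE 0.85, limma adjusted p = 0.776, and 0.113 with the replicate block), and by 0.58 without the times that hold an array against its label. Within the periods the difference was -0.18 in the first, 1.16 in the second and 1.99 in the third, which holds 2 times only.

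**Figure D4:**
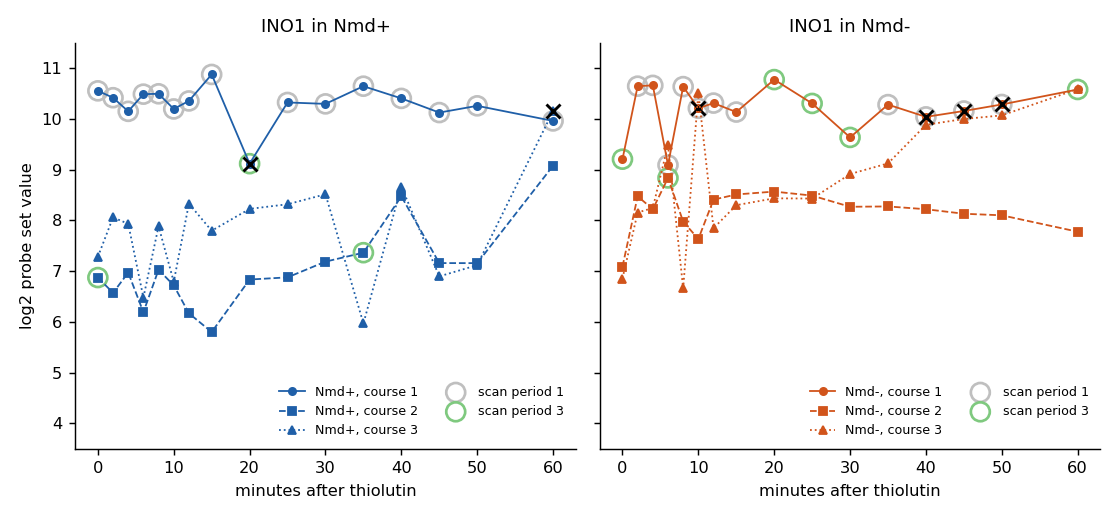
Log2 value of INO1 (y axis) against minutes after thiolutin (x axis) in Nmd+ (left) and Nmd- (right), with 1 line per course, grey rings on arrays of scan period 1, green rings on those of period 3 and crosses on the 6 arrays against their label. Course 1 stays between 9.09 and 10.87 in both strains, and Nmd- course 3 reaches 10.59 at 60 min.

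The change after transcription was blocked was measured within each course, as the mean of 45, 50 and 60 min minus the mean of 0 and 2 min. In Nmd+ no member passed the test, while 11.1% of all probe sets were called higher and 14.3% lower late in the course. The members ranged from -0.43 (ITR1, SE 0.22, limma adjusted p = 0.182) to 0.55 (INO4, SE 0.27, limma adjusted p = 0.164). In the courses of Nmd+ taken 1 to 3, INO4 moved by 0.07, 0.40 and 1.16, and the early mean of course 3 includes the low array at 2 min. The median net change was -0.15 over the 10 genes and 0.05 over all probe sets.

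In Nmd- the level of EKI1 fell, and no other member passed the test. EKI1 moved by -1.13, -0.66 and -0.49 in courses 1 to 3, downward in each. The mean of -0.76 (SE 0.19, 1.69-fold lower) had an adjusted p of 0.0249 in limma, where 11.1% of all probe sets were called lower and 9.97% higher. Course 1 holds 2 arrays against their label among its late times, at 45 and 50 min. Without the arrays against their label the value was -0.52 (SE 0.18, limma adjusted p = 0.0625) and the call was lost, and INO2 passed in its place at -0.65 (limma adjusted p = 0.0426). It was also lost without any one of the Nmd- courses, with values from -0.89 to -0.58. ITR2 moved by -0.41, -0.77 and -0.28 in the 3 courses. Its mean of -0.49 (SE 0.15) had an adjusted p of 0.0437 in limma but was below 1.5-fold. INO2 moved by -0.57 (SE 0.21, limma adjusted p = 0.0799) and INO1 by 1.12 (SE 0.46, limma adjusted p = 0.117), of which 2.71 was seen in course 3 and 0.41 and 0.22 in the others. OPI1, CHO1, CHO2, OPI3 and ITR1 lay between -0.39 and 0.10.

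INO4 in Nmd- moved by -0.16 (SE 0.27, limma adjusted p = 0.701). Without the arrays against their label it moved by 0.37 (SE 0.21, limma adjusted p = 0.227), the opposite direction. The test of the strain difference in net change, fitted to the same 6 courses, called none of the 10 genes and 0 of 9275 probe sets, with 550 higher and 559 lower at an unadjusted p under 0.05 in limma (317 called with scan period as a factor, none of them a member). INO4 had the most negative value of the 10, -0.71 (SE 0.38, limma adjusted p = 0.482), and -0.08 without the arrays against their label. EKI1 differed in net change by -0.41 (SE 0.27, limma adjusted p = 0.553), and the other 8 genes by -0.33 (INO2) to 0.75 (INO1).

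Because every array was scaled to the same overall level, the deposited values cannot show a loss common to all RNA. The 110 probe sets that the methods took as stable rose in the deposited values between the early and the late times by 0.72 in Nmd+ and 0.51 in Nmd-. Their line stood at -0.20 and -0.13 in the Nmd- course 1 arrays at 45 and 50 min, both against their label. In Nmd- courses 2 and 3 it stood at 0.26 and 0.34 at 45 min and at 0.36 and 0.29 at 50 min. The lower Nmd- figures here include those 2 arrays, and counts of called probe sets without them are given at the end. Measured against the stable probe sets, the median net change of all probe sets was -0.68 in Nmd+ and -0.49 in Nmd-. On that scale 7 of the 10 genes were called lower in Nmd+, where 57.2% of all probe sets were (3.06% higher), and 5 in Nmd-, where 38.3% of all probe sets were (3.01% higher). ITR1 stood at -1.15 (SE 0.24), EKI1 at -1.07 (SE 0.18) and ITR2 at -1.03 (SE 0.18) in Nmd+, with limma adjusted p of 0.00351, 0.00133 and 0.00147. In Nmd-, EKI1 stood at -1.27 (SE 0.18, limma adjusted p = 0.00159), INO2 at -1.07 and ITR2 at -0.99. INO4 stood at -0.18 (SE 0.23, limma adjusted p = 0.504) in Nmd+ and at -0.67 (SE 0.23, limma adjusted p = 0.0396) in Nmd-. Without the arrays against their label, which was tried only once the data had been seen, INO4 in Nmd- was at -0.33 (limma adjusted p = 0.153) and its call was lost, while EKI1 in Nmd- was at -1.22 (limma adjusted p = 0.00109). INO1 stood at -0.36 in Nmd+ and 0.61 in Nmd- (SE 0.44 in both) and was called in neither.

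**Figure D5:**
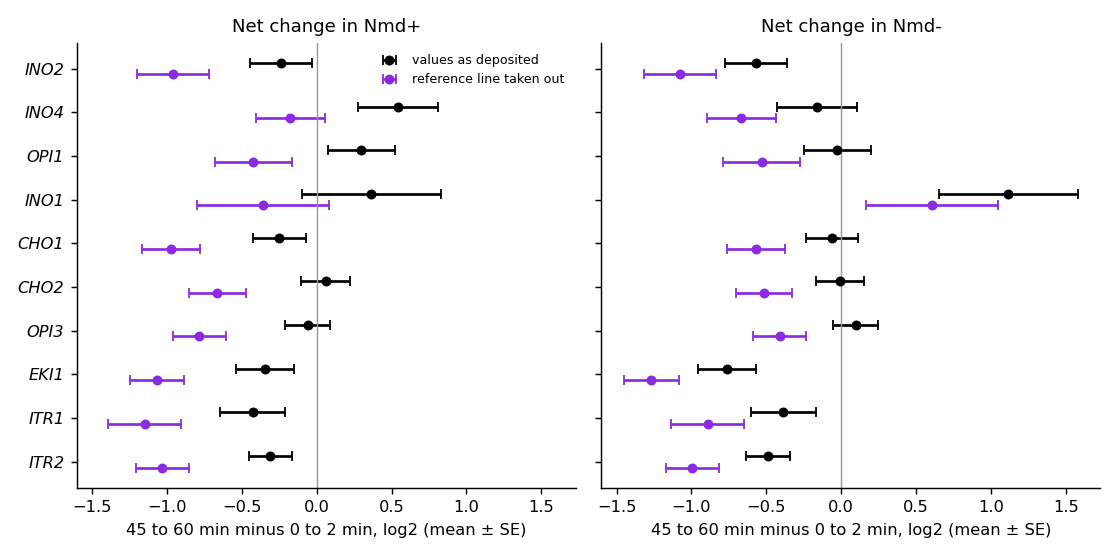
Net change on the log2 scale (x axis, mean of 45, 50 and 60 min minus mean of 0 and 2 min, ± SE, n = 3 courses) for the 10 genes (y axis) in Nmd+ (left) and Nmd- (right). Black points are the deposited values and purple points those with the reference line of stable probe sets taken out, which lie lower by 0.72 in Nmd+ and 0.51 in Nmd-.

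The slope over the first 20 min, against the stable probe sets, was compared between the strains as a measure of early decay. In Nmd- the line of the stable probe sets did not rise steadily over this window. At 6 min it stood at 0.42, 0.15 and 0.33 in courses 1 to 3. By 8 min it was at -0.27, -0.36 and -0.42. At 10 min it was again high in courses 2 and 3, at 0.38 and 0.41. The part of this in the slopes was not tested. INO1 was the member called, with a difference of 0.0715 log2 per min (SE 0.0168, limma adjusted p = 0.0473), where 4.6% of all probe sets had a higher and 0.313% a lower slope in Nmd-. Its slopes were -0.0648, -0.0381 and -0.00288 log2 per min in Nmd+ and 0.0361, 0.0326 and 0.0401 in Nmd-. They were thus negative in each Nmd+ course, though nearly flat in course 3, and positive in each Nmd- course. These slopes are relative to the stable probe sets. The deposited INO1 values of Nmd+ course 3 were 7.28 at 0 min and 8.23 at 20 min. The Nmd+ course 1 array at 20 min, at 9.12, was one against its label. The median difference over all probe sets was 0.024 log2 per min and that over the 10 genes 0.0247. The call was lost without the arrays against their label (0.0531, limma adjusted p = 0.0677), without the reference line (0.0487, limma adjusted p = 0.204) and without any of 5 of the 6 courses (limma adjusted p from 0.0579 to 0.154). The slope of INO4 differed by 0.019 (SE 0.0176, limma adjusted p = 0.457) and that of EKI1 by 0.00721 (SE 0.017, limma adjusted p = 0.778). The other 7 genes lay between -0.0087 (CHO2) and 0.0441 (ITR1, limma adjusted p = 0.0602). The paper reports a longer INO4 half-life in Nmd- from blots, taken at times spread much like those of its arrays. Its own fit of these arrays gave INO4 a changed decay rate in the other direction, with a shorter half-life in Nmd-. For short-lived RNAs in general, it says that its array times were sparse for fast early decay. INO4 was also low in Nmd+, with a median of 5.46 in the arrays with their label, where array medians were 5.86 to 6.08. How well the slope follows fast decay was not tested.

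Of 41 other genes of phospholipid and fatty acid synthesis and turnover, measured by 57 probe sets, PGS1 was the one whose level was called different between the strains. PGS1 codes for the enzyme that makes phosphatidylglycerol phosphate, the precursor of cardiolipin. Its 2 probe sets were higher in Nmd- by 1.01 (SE 0.18, limma adjusted p = 0.0181) and 0.99 (SE 0.20, limma adjusted p = 0.0331) at 0 min. Over the course they were higher by 0.78 and 0.95, with limma adjusted p of 0.036 and 0.0174. These 2 of the 57 probe sets were called, where 4.28% of all probe sets were called higher at 0 min and 2.64% over the course. The median difference at 0 min over the 57 probe sets was -0.13. In early slope 2 of the 41 were called, CDS1, the CDP-diacylglycerol synthase gene, at 0.0652 log2 per min (limma adjusted p = 0.0416) and the phospholipase gene PLB2 at 0.0696 (limma adjusted p = 0.043), both higher in Nmd-. These were 2 of the 57 probe sets, where 4.6% of all probe sets were called higher and 0.313% lower in early slope.

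The same 41 genes were followed after transcription was blocked. In Nmd+, 11 of the 41 were called lower and 4 higher late in the course, and in Nmd- 6 were lower and 3 higher. As probe sets these were 15 lower and 4 higher of 57 in Nmd+, against 14.3% and 11.1% of all probe sets, and 6 lower and 3 higher in Nmd-, against 11.1% and 9.97%. The phospholipase gene PLB2 moved by -1.92 in Nmd+ and -1.52 in Nmd-, and the fatty acid activating enzyme gene FAA4 by -1.39 and -1.08. PIS1, whose enzyme joins inositol to CDP-diacylglycerol, moved by -0.88 and -0.69. GEP4, which codes for the phosphatase after Pgs1, was called lower at -0.85 and -0.83. GPT2, an acyltransferase gene of the first step of phosphatidic acid synthesis, moved by 1.22 and 0.93, and the cardiolipin synthase gene CRD1 by 0.72 and 0.59. FAA1, a second gene for fatty acid activation, was called higher in Nmd+ at 0.69. These net changes, all with a limma adjusted p of 0.0164 or less where called, are those of the deposited values, and taking out the reference line lowers each by 0.72 in Nmd+ and 0.51 in Nmd-. With the line taken out, the number of these probe sets called lower was 42 of 57 in Nmd+ and 30 in Nmd-, against 57.2% and 38.3% of all probe sets, and none was called higher, against 3.06% and 3.01%.

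The members did not move as one group over the 32 strain-by-time means, each of 3 arrays. The closest pair was EKI1 and ITR2 (Pearson r = 0.91 over 32 means, 0.67 over the 16 of Nmd+ and 0.86 over the 16 of Nmd-). INO2 and ITR2 had r = 0.80, and so had CHO1 and ITR1. INO4 and EKI1 had r = 0.75 over both strains but -0.50 within Nmd+ and 0.28 within Nmd-. CHO2 and OPI3, the consecutive methylation enzymes, had the most negative r, -0.42. The means share arrays, and these correlations are a description. Among 6503 other probe sets with 1 gene name, those most like INO4 were ATF1 (r = 0.94), RAD57 (r = 0.93) and EMA35 (r = 0.93). Those most like INO1 were PAU7 (r = 0.80), FRT2 (r = 0.79) and IMA5 (r = 0.78). These r values span both strains, so a difference in level between the strains enters them. None was taken within a strain.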

How the data were processed

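Probe set signals were background-adjusted, normalized over all arrays and summarized by robust multi-chip average (RMA) by the authors, and the log2 values were used as deposited. The methods call them natural logs, but a natural log cannot go beyond 11.09 for a 16-bit scan and the highest value was 14.16. Other columns used were the scan periods of the deposited array records, 3 in number. Strain, time and course came from the sample titles, since the source names disagree with them. Probe sets were named from the GEO annotation of the array: 6504 of 9275 had 1 gene name, 328 several and 2443 none, and 60 array controls were left out. Strains and times were compared with limma 3.58.1 (R 4.3.3) on course values, with Benjamini-Hochberg adjustment over all 9275 probe sets. The reference line is the mean of the 110 probe sets that the methods took as stable, each centred within a course. Scripts were tested on simulated data, and summaries used Python 3.11.15, numpy 2.4.6 and pandas 2.3.3.

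The members, the gene lists and the tests were chosen with earlier results of these data known. All 10 members were described in every comparison by value, range or count, with up to 6 called pathway genes per comparison by smallest adjusted p, and the 3 probe sets most like INO1 and INO4 by Pearson correlation. PHO84 was named after its values were seen. Whether course numbers pair the strains was checked by correlating deviations from the strain means over all probe sets. For course means, equal numbers had correlations of 0.58 to 0.83, so they were taken as pairs, and for the values at 0 min, the net changes and the slopes at least 1 pair was below 0.1. The precision is limited by the number of courses, 3 per strain. Alternatives were the pairing, the reference line, the fold minimum, scan period as a factor, a running median over 401 neighbouring probe set numbers, the lower quartile of level left out, other times, the arrays against their label left out, and each course left out. Coordinates were not used here.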

Additional observations from a re-analysis of the deposited data

Results flagged for a closer look

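The slope of INO1 over the first 20 min, against the stable probe sets, differed between Nmd- and Nmd+ by 0.0715 log2 per min (SE 0.0168, limma adjusted p = 0.0473). It was negative in 3 of 3 Nmd+ courses, with -0.00288 in course 3, and positive in 3 of 3 Nmd- courses. In Nmd- the line of the stable probe sets was uneven over this window, as given above. The call was lost in most alternatives: without the arrays against their label (limma adjusted p = 0.0677), without the reference line (0.204), with the replicate block (0.054), with scan period as a factor (0.223), over 0 to 10 min (0.537), with the drift along probe set numbers removed (0.0673) and in 5 of 6 fits without a course. INO1 is also the member whose level differed most between courses of 1 strain, and the part of that spread in this value was not tested. No group held more than 3 arrays, so single arrays far from the others of their group were not tested.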

How the results depend on the processing

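INO4 was called higher in Nmd- under every alternative at 0 min and over the course, except when single courses were left out, and EKI1 at 0 min lost its call in other settings too. With a course left out, the members called numbered 0 to 1 at 0 min (2 with all), 0 to 1 over the course (1), 0 to 1 for the net change in Nmd- (1) and 0 to 2 for the early slope (1). The replicate block gave 1 member at 0 min, 2 over the course and 0 for the slope, and its removal from the net change in Nmd- gave 0. It changed no other call. Scan period as a factor gave 1, 2, 2 and 0 members at 0 min, over the course, for the net change in Nmd- and for the slope. The reference line gave 7 members in Nmd+ and 5 in Nmd-, and 7 and 5 also without the arrays against their label, a setting added after the data were seen. Without a fold minimum 2 members passed in Nmd-. The slope kept 0 members without the reference line, over 0 to 10 min and without the arrays against their label. Why these calls changed was not tested.

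Of 467 alternative values of the member results given above, 377 kept direction and call and 39 turned direction. With 1 course left out, the ranges that cross 0 were, at 0 min, -1.26 to 0.64 for INO1, -0.15 to 0.0031 for OPI1, -0.14 to 0.23 for CHO1 and -0.17 to 0.14 for ITR1. Over the course they were -0.086 to 0.23 for OPI3, -0.11 to 0.13 for CHO2, -0.11 to 0.20 for CHO1 and -0.032 to 0.33 for ITR1. INO4 in net change in Nmd- ran from -0.42 to 0.17 and EKI1 in slope from -0.0026 to 0.0229. With the reference line taken out, CHO1 at 0 min was at -0.0065 and the net change in Nmd+ at -0.36 for INO1 and -0.18 for INO4 (-0.72 and -0.28 without the arrays against their label). With the drift along probe set numbers removed by a running median, CHO1 was at -0.21 at 0 min and -0.040 over the course, and CHO2 at -0.0078 over the course. With scan period as a factor, INO1 was at 0.82 and ITR1 at 0.14 at 0 min, and CHO2 at -0.011 over the course. Without the arrays against their label, OPI3 was at -0.0023 over the course and the net change of INO4 in Nmd- at 0.37, and at 60 against 0 min the latter was 0.16. The slope difference was -0.0735 for EKI1 and -0.0895 for INO4 over 0 to 10 min, and -0.0156 and -0.00385 without the reference line.

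Counts over all probe sets moved too. Of 462 called at 0 min, the replicate block left 277, scan period 272 and a left-out course as few as 190. Of 252 over the course these gave 664, 600 and as few as 0. The reference line raised 2357 in Nmd+ to 5590 and 1956 in Nmd- to 3833 (5448 and 5486 without the arrays against their label), and 1233 were called in Nmd- without pairing by course. Of 456 for the slope, 39 remained in number without the reference line, 0 over 0 to 10 min, 262 without the arrays against their label, and 0 to 2405 with a course left out. At 0 min, equal course numbers had correlations between -0.30 and 0.10, so the block there rests on a shared number only.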

Other observations

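The 5 probe sets with the largest gap between course 1 and the mean of courses 2 and 3, averaged over the strains, were those of PHO84 (2.42), INO1 (2.28), YOR387C (2.05), PHO89 (2.01) and GSC2 (1.84), on the log2 scale. PHO84 and PHO89 code for phosphate transporters of the plasma membrane. PHO84 was higher in course 1 by 2.49 in Nmd+ and 2.35 in Nmd-, and PHO89 by 2.97 and 1.04. YOR387C was higher in Nmd+ course 1 by 4.45 and not in Nmd- course 1, where the gap was -0.35. The list was made after the values of INO1 were seen, and it is given with no test.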
